A study of Arabidopsis thaliana with 8 samples.

Results

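SAUR19 to SAUR24 are 6 neighbouring *Arabidopsis thaliana* genes on chromosome 5, with the loci AT5G18010, AT5G18020, AT5G18030, AT5G18050, AT5G18060 and AT5G18080. They were followed through every array probe whose annotated locus is one of these 6. This gave 6 probes of 37478 non-control probes, 1 for each gene. All 6 were among the 21446 loci tested, and all 96 of their channel measurements were well above background, with none saturated.

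The study compared the *paps1-1* mutant with wild type (WT), both in the Ler ecotype. PAPS1 is one of the nuclear poly(A) polymerases, the enzymes that add the poly(A) tail to new mRNAs. Each array carried mutant RNA in one dye and WT RNA in the other. There were 4 arrays of inflorescences and 4 of seedlings, with the mutant in Cy5 on replicates 1 and 2 and in Cy3 on replicates 3 and 4. Inflorescences were main inflorescences without the flowers and buds that had opened, taken from soil-grown plants aged 30 days in both genotypes. Seedlings were whole plants with their roots from MS plates, aged 11 days in the mutant and 9 days in WT, ages meant to match the stage of the first true leaves. All plants grew at 21 °C in long days and were harvested 5 to 7 hours into the light period. The mutant is represented by a single allele, and the seedling groups differ in age as well as genotype, so the parts of age and genotype in the seedling values cannot be told apart. The replicates are described as biological, without saying whether they were separate plantings, so p-values measure the spread between these arrays.

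SAUR genes (SMALL AUXIN UP RNA) are switched on early in the response to the growth hormone auxin and code for small proteins. Members of the SAUR19 group inhibit phosphatases of the PP2C clade D. These phosphatases otherwise switch off the plasma membrane H+-ATPases, the proton pumps that acidify the cell wall and allow cells to expand. The group is known for promoting elongation of hypocotyls and other organs, downstream of auxin and of PIF transcription factors. The genes are close copies of each other. Whether each probe reads its own gene alone was not tested, since probe sequences were not used here, and the 6 values may share signal.

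Seedling arrays were dimmer than inflorescence arrays. Signal over background was 2.66 to 3.04 in red and 3.35 to 4.06 in green on seedling arrays. On inflorescence arrays it was 3.89 to 5.02 and 4.93 to 5.51. Between 56.3% and 57.3% of probes were well above background in both colours on seedling arrays, and 60.4% to 62% on inflorescence arrays. No spot was saturated. Over all loci, log2 ratios correlated with Pearson's r of 0.702 to 0.895 between seedling arrays, 0.789 to 0.905 between inflorescence arrays and 0.369 to 0.535 between tissues, described without a test. PAPS1 itself had a log2 ratio of 0.10 in inflorescences (limma, adjusted p = 0.117) and 0.0023 in seedlings (adjusted p = 0.973), which does not check the labels, because the mutation need not change the level of its own RNA. The 9 floral identity genes were all above background in every inflorescence channel, and 4 of them were in every seedling channel. Of 14 root markers, 13 were above background in every seedling channel, against 6 in inflorescences.

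In seedlings, the RNA signal of all 6 probes was lower in *paps1-1*, at 37.7% to 45.8% of the WT level. Values below are log2 ratios of mutant over WT, after loess normalisation within each array, and a negative value means less RNA in the mutant. The 4 arrays, in replicate order, gave −1.80, −1.51, −1.28 and −1.04 for SAUR22. For SAUR23 they gave −1.48, −1.23, −1.16 and −1.04. Every array lay below 0 for both genes.

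SAUR19 gave −1.30, −1.21, −1.18 and −0.87 on the same 4 arrays. SAUR20 gave −1.40, −0.71, −1.34 and −1.18. Replicate 4 was the least negative array for SAUR19, and replicate 2 for SAUR20. SAUR21 gave −1.44, −0.94, −1.26 and −0.97. SAUR24 gave −1.35, −0.88, −1.12 and −1.16. All 24 seedling values were thus negative, and replicate 1 was the lowest array for each gene.

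The fit over all loci put SAUR22 at −1.41 ± 0.07 (SE, n = 4 arrays; limma with Benjamini-Hochberg adjustment over 21446 loci, adjusted p = 3.95e-07), a 2.66-fold decrease. SAUR23 stood at −1.23 ± 0.06 (adjusted p = 2.95e-07). The other 4 were closer together. SAUR20 stood at −1.16 ± 0.10 (adjusted p = 8.21e-06) and SAUR21 at −1.15 ± 0.08 (adjusted p = 3.1e-06). SAUR19 stood at −1.14 ± 0.07 (adjusted p = 1.37e-06) and SAUR24 at −1.13 ± 0.08 (adjusted p = 1.83e-06). The decreases of these 4 genes differed from each other by less than 1 SE.

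All 6 of 6 probes therefore read lower in seedlings at an adjusted p under 0.05, where 29.3% of all loci tested were called lower, 28.6% higher and 57.9% in either direction. The probes may share signal, so these need not be 6 separate decreases. Since so many loci were called, the size of the decrease says more about the cluster than the call. The median log2 ratio of the 6 was −1.16, against −0.0038 over all loci. Tested against a change of 1.5-fold, all 6 were still called (limma treat, adjusted p from 4.35e-05 to 0.00417), compared with 1.48% of all loci called lower by that rule. Ranked from the lowest log2 ratio, the genes took places 41, 68, 91, 92, 93 and 96 of 21446, and 90 loci outside the cluster lay at or below the highest of them. Among called loci 49.4% were higher in the mutant, and 32.4% when arrays were only centred on their median. In whole organs, fewer cells that express a gene and less of its RNA per cell cannot be told apart.

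**Figure D1:**
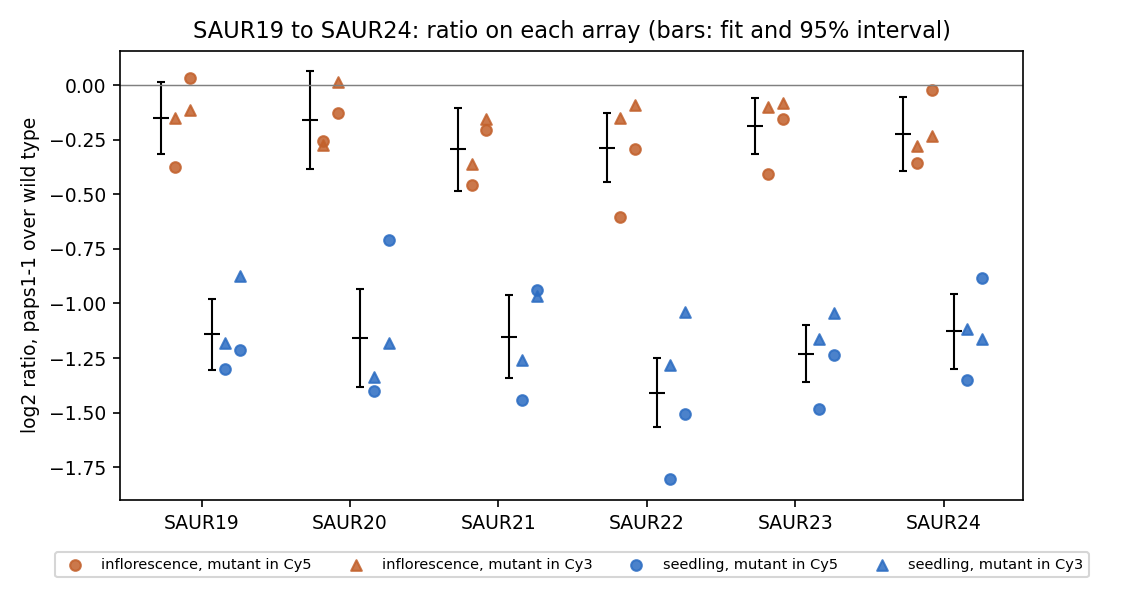
Log2 ratio of *paps1-1* over WT (vertical axis) for SAUR19 to SAUR24 in inflorescences and seedlings; each point is 1 array, marked by the dye that carried the mutant, and bars are the fitted value with its 95% interval. All 24 seedling points lie below −0.70, while inflorescence points lie between −0.61 and 0.03.

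In inflorescences the same genes were closer to WT, at 81.5% to 90.0% of its level. SAUR21 gave −0.46, −0.21, −0.36 and −0.15 on replicates 1 to 4. SAUR22 gave −0.61, −0.29, −0.15 and −0.09. Both were below 0 on every array. SAUR24 gave −0.36, −0.02, −0.28 and −0.23, and SAUR23 gave −0.41, −0.16, −0.10 and −0.08. SAUR19 gave −0.37, 0.03, −0.15 and −0.11, and SAUR20 gave −0.26, −0.13, −0.27 and 0.01. SAUR19 and SAUR20 each had 1 array just above 0.

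The fitted decrease passed the test for 4 of 6 genes, where 27.5% of all loci were called lower, 26.2% higher and 53.7% in either direction. SAUR21 fell by 0.29 ± 0.08 on the log2 scale (limma, adjusted p = 0.0144) and SAUR22 by 0.29 ± 0.07 (adjusted p = 0.00677). SAUR24 fell by 0.22 ± 0.08 (adjusted p = 0.0311) and SAUR23 by 0.19 ± 0.06 (adjusted p = 0.0205). SAUR20, at −0.16 ± 0.10 (adjusted p = 0.205), and SAUR19, at −0.15 ± 0.07 (adjusted p = 0.107), did not pass. Their 95% intervals ran from −0.38 to 0.06 and from −0.32 to 0.01. The median of the 6 was −0.21, against 0.00092 over all loci, and their percentile ranks ran from 14.3 to 27.2. None was called against a 1.5-fold change, where 1.01% of all loci were called lower. Among called loci 48.7% were higher, and 39.0% with median centring.

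The count of 4 in inflorescences rested on single arrays. Without inflorescence replicate 1 or without replicate 3 it was 1, without replicate 4 it was 2, and without replicate 2 it was 5. It was 2 with no dye term in the fit, and 3 with normexp offset 0 or with the scanner software's own log ratio. Each of the 6 values stayed below 0 in all of these fits, between −0.39 and −0.09 over every setting tried. The seedling count stayed at 6 in every fit.

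The decrease was larger in seedlings than in inflorescences for each gene when the difference itself was tested. The seedling minus inflorescence difference in log2 ratio was −1.12 ± 0.10 for SAUR22 (limma contrast, adjusted p = 4.85e-05) and −1.04 ± 0.08 for SAUR23 (adjusted p = 2.46e-05). It was −0.997 ± 0.142 for SAUR20 (adjusted p = 0.000676) and −0.99 ± 0.10 for SAUR19 (adjusted p = 0.00012). SAUR19, SAUR20 and SAUR23 were the 3 genes nearest to WT in inflorescences. The difference was −0.90 ± 0.11 for SAUR24 (adjusted p = 0.00024) and −0.86 ± 0.12 for SAUR21 (adjusted p = 0.000615). All 6 passed, where 15.9% of all loci were called lower, 16.3% higher and 32.2% in either direction. The median was −0.99 against 9e-05 over all loci. Against a difference of 1.5-fold, only SAUR23 (adjusted p = 0.0113) and SAUR22 (adjusted p = 0.0144) passed, where 0.62% of all loci were called lower by that rule. Of the called differences over all loci, 50.7% were positive, and 36.4% with median centring. Tissue, growth on soil or plates, the age gap of the genotypes and array slide change together, and their parts cannot be told apart.

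**Figure D2:**
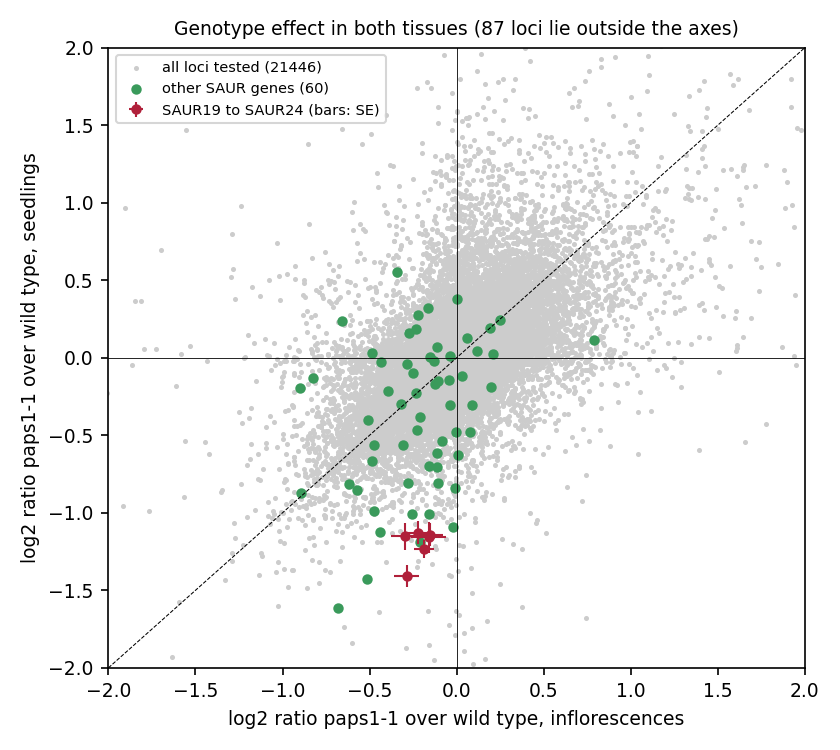
Log2 ratio of *paps1-1* over WT in inflorescences (horizontal axis) and seedlings (vertical axis); grey points are the loci tested, 87 of which lie outside the axes, and the cluster (bars are SE) and other SAUR genes are marked. The 6 cluster genes sit together between −1.41 and −1.13 on the vertical axis and between −0.29 and −0.15 on the horizontal axis.

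The level of each probe, on the log2 scale of channel signals normalised between arrays, showed the cluster to be brighter in seedlings than in inflorescences. For SAUR22, the level in WT seedlings was 12.58 ± 0.15 (SD, n = 4 arrays), and 11.18 ± 0.32 in mutant seedlings. In inflorescences it was 9.97 ± 0.21 in WT and 9.69 ± 0.05 in the mutant. For SAUR19, the corresponding levels were 10.12 ± 0.12 and 8.98 ± 0.18 in seedlings, and 8.09 ± 0.15 and 7.94 ± 0.07 in inflorescences. SAUR20 went from 12.23 ± 0.14 in WT to 11.07 ± 0.27 in mutant seedlings, and from 9.86 ± 0.17 to 9.70 ± 0.09 in inflorescences. For SAUR19 and SAUR20 the WT and mutant channels overlapped in inflorescences but not in seedlings.

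SAUR21 stood at 11.65 ± 0.06 in WT and 10.50 ± 0.20 in mutant seedlings, and at 9.27 ± 0.18 and 8.98 ± 0.11 in inflorescences. SAUR23 stood at 11.93 ± 0.10 in WT seedlings and ranged from 10.49 to 10.87 in mutant seedlings, and stood at 9.66 ± 0.19 and 9.48 ± 0.09 in WT and mutant inflorescences. SAUR24 stood at 11.59 ± 0.08 and 10.46 ± 0.21 in seedlings, and at 9.05 ± 0.15 and 8.82 ± 0.14 in inflorescences. Mean levels of all 6 probes had the same order, with WT seedlings highest, then mutant seedlings, WT inflorescences and mutant inflorescences. The share of all loci with this order is not given here, so it is not read as a trait of the cluster. Levels are not compared between probes.

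The 4 mutant seedling channels lay below the 4 WT seedling channels without overlap for all 6 genes, as they did for 21.5% of all loci. In inflorescences the genotypes did not overlap for SAUR21 and SAUR22, and overlapped for the other 4 genes, while the mutant lay below WT without overlap for 22.5% of all loci. WT seedlings exceeded WT inflorescences by 2.03 (SAUR19) to 2.61 (SAUR22) on the log2 level scale. Mutant seedlings exceeded mutant inflorescences by 1.04 to 1.64. They still stood above WT inflorescences, by 0.887 (SAUR19) to 1.41 (SAUR24). Without normalisation between arrays these differences were smaller, at 1.27 to 1.87, 0.278 to 0.871 and 0.126 to 0.648. Mutant seedlings then overlapped with mutant inflorescences for SAUR19, and with WT inflorescences for SAUR19 and SAUR23. In these level differences tissue, age, growth on soil or plates and array slide change together, and their parts cannot be told apart. The share of all loci with such differences between tissues is not given here.

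**Figure D3:**
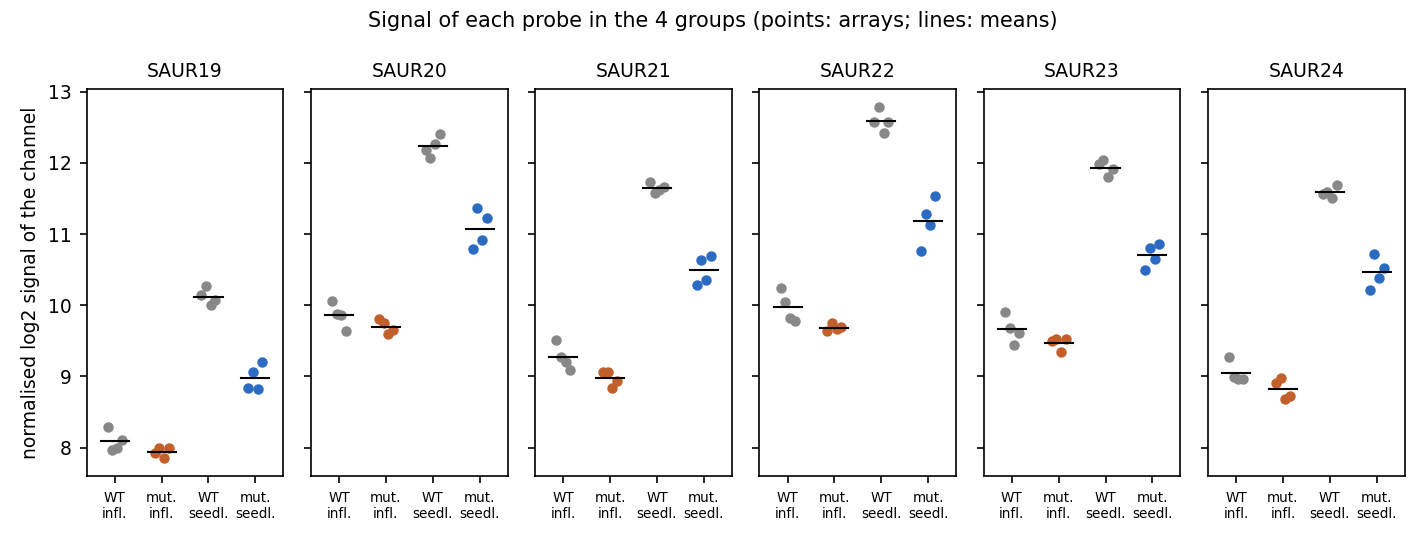
Log2 channel signal after normalisation between arrays (vertical axis) for each of the 6 probes in the 4 groups; each point is 1 array channel. For every gene the WT seedling points lie highest, and mutant seedling points stay above inflorescence points on this scale. Without normalisation between arrays, mutant seedlings overlapped with WT inflorescences for SAUR19 and SAUR23.

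The mean of the 6 log2 ratios was −1.46, −1.08, −1.22 and −1.04 on seedling replicates 1 to 4. On inflorescence replicates 1 to 4 it was −0.41, −0.13, −0.22 and −0.11. In both tissues the mean was lowest on replicate 1 and closest to 0 on replicate 4, although replicate 2 was the least negative seedling array for SAUR20, SAUR21 and SAUR24. The distance between the highest and lowest gene on an array was 0.221 to 0.798 in seedlings and 0.249 to 0.348 in inflorescences.

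SAUR22 set itself apart mainly on arrays with the mutant in Cy5. In seedlings its log2 ratio minus the mean of the other 5 genes was −0.41 and −0.51 on the Cy5 arrays, and −0.07 and 0.005 on the Cy3 arrays. In inflorescences the corresponding values were −0.24 and −0.20, then 0.08 and 0.02. Its seedling mean was −1.66 with the mutant in Cy5 and −1.16 with the mutant in Cy3. It was the only one of the 6 with a called dye term, at −0.21 ± 0.05 (limma, adjusted p = 0.0366), where 8.03% of all loci had one. With the mutant in Cy3, SAUR20 had the lowest seedling mean of the 6, at −1.26, so the place of SAUR22 as the most reduced gene rests on the Cy5 arrays.

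Between and around the 6 genes in the TAIR10.1 gene order lie other genes, and the array measured 9 of 18 of them within 5 loci of the cluster. In inflorescences 1 was called lower and 2 higher, with a median log2 ratio of 0.07, where 27.5% of all loci were called lower and 26.2% higher. In seedlings 3 were called lower and 2 higher, with a median of −0.02, where 29.3% and 28.6% of all loci were.

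Inside the cluster, the locus AT5G18040, between SAUR21 and SAUR22, stood at 0.06 ± 0.06 in inflorescences (limma, adjusted p = 0.39) and 0.02 ± 0.06 in seedlings (adjusted p = 0.803), a value that was negative with median centring and with the software log ratio. The locus AT5G18065, between SAUR23 and SAUR24, stood at 0.07 ± 0.05 in inflorescences (adjusted p = 0.276) and fell by 0.18 ± 0.05 in seedlings (adjusted p = 0.0146), a call lost with median centring and without seedling replicate 1 or 2. DRT101, named for a role in tolerance of DNA damage, also lies between SAUR23 and SAUR24. It fell by 0.80 ± 0.05 in inflorescences (adjusted p = 2.41e-06) and by 0.75 ± 0.05 in seedlings (adjusted p = 2.63e-06). Its difference between tissues was 0.05 (adjusted p = 0.661), while those of its SAUR neighbours were −1.04 (SAUR23) and −0.90 (SAUR24).

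Outside the cluster, TRP1, an enzyme of tryptophan synthesis, rose by 0.76 ± 0.05 in seedlings (limma, adjusted p = 2.1e-06) and by 0.14 in inflorescences (adjusted p = 0.0396), the latter call being lost in 11 of 19 other settings. VDD, a transcription factor of the female gametophyte, was higher by 0.31 in inflorescences (adjusted p = 0.00024) and lower in seedlings, at −0.15 (adjusted p = 0.0136), and both calls were lost with median centring. CSD3, a superoxide dismutase, rose by 0.29 in seedlings (adjusted p = 0.00132) and stood at 0.11 in inflorescences (adjusted p = 0.127). AT5G17980, AT5G18090 and the cap-binding protein gene NCBP did not pass in either tissue.

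**Figure D4:**
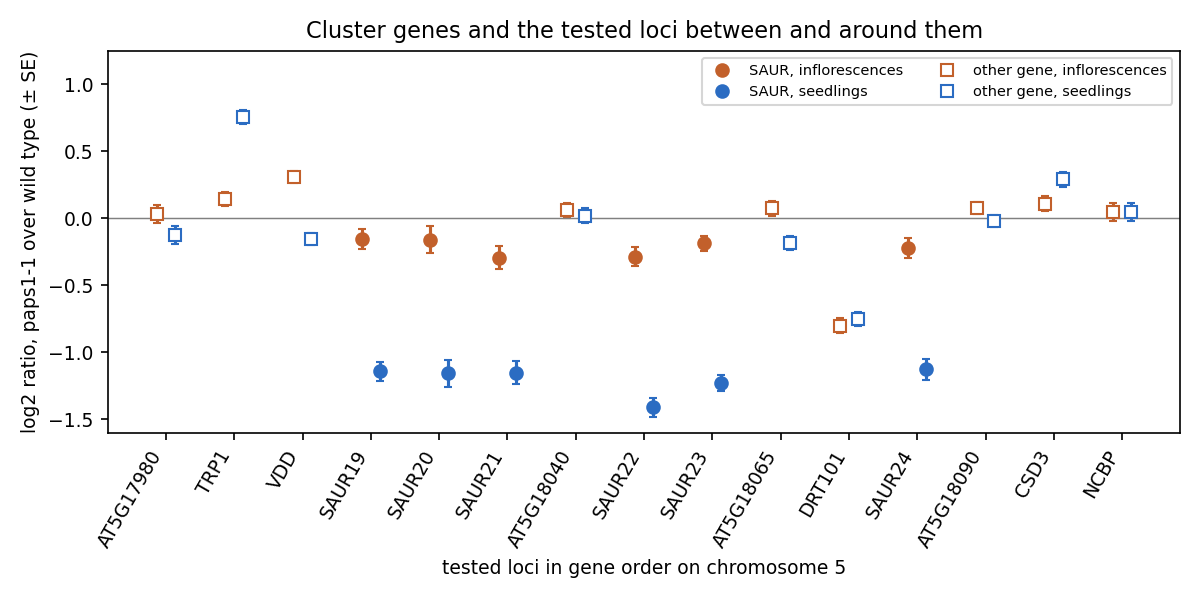
Log2 ratio of *paps1-1* over WT (vertical axis) for loci in chromosomal order (horizontal axis, by rank and not to distance) in both tissues, with bars for the SE. In seedlings the 6 SAUR genes lie near −1.2, and AT5G18040 between them lies at 0.02.

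The reference table names 74 other SAUR genes, of which 60 were tested. In seedlings their median was −0.26, against −1.16 for the cluster, and it stayed nearer to 0 than the cluster's under every scaling tried. In inflorescences it was −0.19, against −0.21 for the cluster, and that order turned with normexp offset 0 (−0.29 against −0.21), the software log ratio (−0.38 against −0.25) and the deposited value table (−0.29 against −0.21). In inflorescences 28 of 60 were called lower and 2 higher, where 27.5% of all loci were called lower and 26.2% higher. In seedlings 35 were called lower and 6 higher, where 29.3% and 28.6% of all loci were. Only 3 of the 60, SAUR16, SAUR63 and SAUR64, lay at or below the highest cluster gene in seedlings. In inflorescences 34 of the 60 did, and 19 lay at or below the lowest cluster gene.

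SAUR16 fell by 1.61 ± 0.06 in seedlings (limma, adjusted p = 8.23e-08), further than any cluster gene. SAUR63, of another group known to promote organ elongation, fell by 1.43 ± 0.08, and SAUR64 by 1.19 ± 0.07. The SAUR genes with the largest increases in seedlings were SAUR41 at 0.55 ± 0.07, SAUR37 at 0.38 ± 0.06 and SAUR70 at 0.32 ± 0.07. In inflorescences the lowest were SAUR79 at −0.90 ± 0.06, SAUR12 at −0.90 ± 0.08 and SAUR42 at −0.83 ± 0.07, each further from WT than any cluster gene there. The 2 that rose in inflorescences were SAUR59 at 0.79 ± 0.11 and SAUR4 at 0.19 ± 0.05. The SAUR4, SAUR37 and SAUR70 calls were lost with median centring, and that of SAUR4 also without inflorescence replicate 1 or 2.

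Of 21326 other loci, those nearest to the cluster's mean profile over the 8 arrays were picked by Euclidean distance between log2 ratios. The nearest was AT1G77520, at a distance of 0.294 (Pearson's r of 0.981 over 8 arrays), with −0.26 in inflorescences and −1.18 in seedlings. AT2G19970 followed at 0.38 (r of 0.977), with −0.22 and −1.31. SAUR64 was next at 0.408 (r of 0.96). AT1G30260 and SAUR26 both lay at 0.562 (r of 0.965 and 0.958), and SAUR26 stood at −0.25 and −1.01. The cluster genes' own distances to that mean, which they themselves form, were 0.208 (SAUR23) to 0.611 (SAUR22). The distances of the nearest outside loci lay within that range. These loci were picked for closeness over the same 8 arrays, so high r values and similar ratios follow from the choice. The arrays also share a tissue and a dye orientation, so these r values are descriptive.

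The phosphatases that SAUR19-type proteins inhibit were called in both directions, at shares near those over all loci in seedlings. Of 9 PP2C clade D genes tested, 4 fell and 3 rose in inflorescences, and 3 fell and 2 rose in seedlings. Over all loci, 27.5% were called lower and 26.2% higher in inflorescences, and 29.3% and 28.6% in seedlings. APD7, the PP2C-D1 gene, gave −1.55, −1.77, −1.65 and −1.56 on the seedling arrays, all below every cluster value but that of SAUR22 on replicate 1. It fell by 1.63 ± 0.05 in seedlings (limma, adjusted p = 5.6e-08) and by 0.16 ± 0.05 in inflorescences (adjusted p = 0.0241). The seedling minus inflorescence difference was −1.47 ± 0.07 (adjusted p = 2.34e-06). The inflorescence call was lost with median centring and without inflorescence replicate 2, 3 or 4. APD6 fell by 0.54 ± 0.05 in inflorescences (adjusted p = 2.21e-05), and by 0.53 ± 0.05 in seedlings. APD9 rose by 0.58 ± 0.05 in inflorescences (adjusted p = 7.11e-06) and by 0.37 ± 0.05 in seedlings (adjusted p = 8.93e-05).

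Of 11 plasma membrane H+-ATPase genes, the pumps at the end of this route, 1 fell and 5 rose in inflorescences, and 1 fell and 4 rose in seedlings. Of all loci, 27.5% were called lower and 26.2% higher in inflorescences, and 29.3% and 28.6% in seedlings. AHA1, a main pump of growing tissue, stood at 0.11 in inflorescences (limma, adjusted p = 0.277) and −0.03 in seedlings (adjusted p = 0.789), and the seedling sign turned without seedling replicate 2 or 3. AHA2, the other main pump, stood at 0.12 in inflorescences (adjusted p = 0.347) and fell by 0.27 ± 0.10 in seedlings (adjusted p = 0.0451), a call lost in 11 of 19 other settings. The largest changes were in other pumps, AHA3 at 0.80 ± 0.10 and AHA9 at −0.39 ± 0.08 in inflorescences, and AHA7 at 0.86 ± 0.10 in seedlings. The AHA9 call was lost with median centring and with the scanner software's own log ratio. The counts varied with the scaling. Pumps that rose numbered 1 to 5 in inflorescences and 2 to 6 in seedlings over the 5 scalings tried, lowest with median centring, and none fell in seedlings with normexp offset 0 or the deposited value table.

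Upstream, of 11 genes for auxin receptors and activating ARF transcription factors, 5 fell and 3 rose in inflorescences, and 6 fell and 2 rose in seedlings. The shares over all loci were 27.5% lower and 26.2% higher in inflorescences, and 29.3% and 28.6% in seedlings. TIR1, the founding auxin receptor, fell by 0.50 ± 0.05 in seedlings (limma, adjusted p = 1.38e-05), and ARF5 rose there by 0.44 ± 0.06. In inflorescences the receptor genes AFB4 and AFB1 stood at −0.22 ± 0.04 and 0.29 ± 0.05, both called. Of 10 auxin synthesis genes tested, 1 fell and 5 rose in inflorescences, and 2 fell and 4 rose in seedlings. These counts stand beside the same shares over all loci. YUC6 fell in both tissues, at −0.25 ± 0.05 and −0.20 ± 0.05. YUC8 rose by 0.52 ± 0.07 in inflorescences and TAR2 by 0.47 ± 0.05 in seedlings.

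Of 7 PIF and BZR genes, which code for transcription factors of elongation growth, 5 fell and none rose in inflorescences, and 5 fell and 1 rose in seedlings. Among all loci, 27.5% were called lower and 26.2% higher in inflorescences, and 29.3% and 28.6% in seedlings. PIF4, a factor of growth in warmth and shade, gave −1.08, −1.12, −1.01 and −1.53 in inflorescences and −0.47, −0.72, −0.82 and −0.62 in seedlings. It fell by 1.18 ± 0.08 in inflorescences (limma, adjusted p = 2.39e-06) and by 0.66 ± 0.08 in seedlings (adjusted p = 7.02e-05). The difference between tissues, 0.53 ± 0.11 (adjusted p = 0.0062), had the opposite sign to that of the cluster genes. PIF1, known for repressing germination in the dark, fell by 0.85 ± 0.04 in seedlings (adjusted p = 3.95e-07) and by 0.37 ± 0.04 in inflorescences. Its difference between tissues was −0.48 ± 0.06 (adjusted p = 0.000362). PIF3 rose by 0.18 ± 0.05 in seedlings (adjusted p = 0.0108), a call lost with median centring, with no dye term and without seedling replicate 4.

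**Figure D5:**
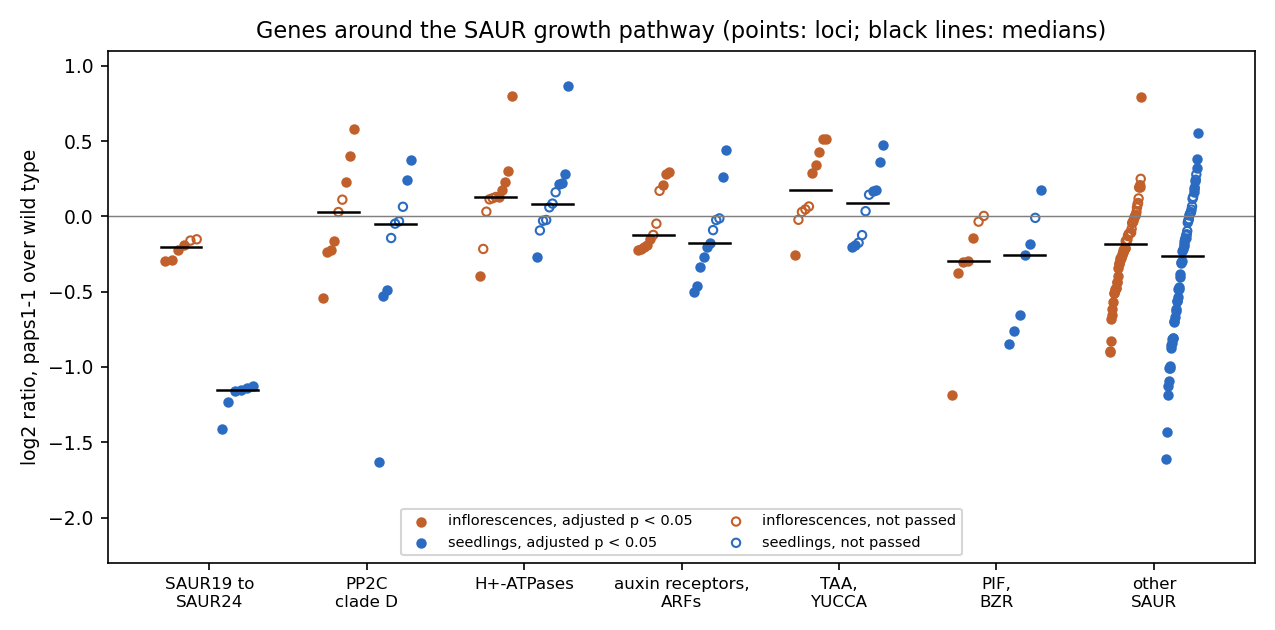
Log2 ratio of *paps1-1* over WT (vertical axis) for each tested gene of 5 pathway lists, the cluster and the other SAUR genes, in both tissues (filled points passed the test); each point is 1 gene and black lines are medians. The cluster lies between −1.41 and −1.13 in seedlings, every other set spreads across 0, and among the PP2C clade D genes APD7 alone reaches −1.63.

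Markers of other tissues moved beside the seedling decrease. Their counts stand beside 29.3% of all loci called lower and 28.6% higher in seedlings, and 27.5% and 26.2% in inflorescences. Of 14 root markers, 9 rose and 1 fell in seedlings, with a median of 0.66, and their summed linear level was 15800 to 17500 in mutant channels against 9260 to 12200 in WT channels. Of 17 nuclear photosynthesis genes, 13 fell and 2 rose, with a median of −0.52, and sums of 1620000 to 2250000 against 2170000 to 3130000. Over the 5 scalings tried, 9 to 13 of these genes fell and 2 to 3 rose, with medians from −0.516 to −0.305. Their median on single seedling arrays ran from −1.08 to 0.00165, and the sums of the genotypes overlapped. In inflorescences the root markers gave 2 lower and 4 higher, with sums of 6670 to 7440 against 6520 to 7500, and 5 of 14 were above background in no channel. Photosynthesis genes there gave 5 lower and 5 higher. Of 9 floral identity genes 5 rose in inflorescences, with sums of 160000 to 170000 against 142000 to 146000, and 2 of 9 were above background in no seedling channel. The part of these shifts in the decrease of the cluster was not tested.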

How the data were processed

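The members and gene lists were chosen with earlier results of these data known. 2-colour Agilent arrays with 39102 spots each were read, per the file headers, with Feature Extraction 10.7.3.1. The deposited spot intensity and local background in each dye were used, and the labelling chemistry is not given in the sources used here. A deposited table of log2 ratios, made by the authors, served as an alternative. Its ratios ran as Cy5 over Cy3 or the reverse, checked against the scanner values (r from 0.802 to 0.906 with the mutant in Cy5 and −0.908 to −0.889 otherwise), with column medians of −0.02 to 0.018. The deposited log10 ratio of the scanner software was another alternative. The submitters' processing notes name limma with no version or role.

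Intensities were corrected with normexp (offset 50) and normalised by loess within arrays, leaving out control and outlier-flagged spots. A locus was read through its brightest probe and tested where the 4 arrays of some genotype in some tissue all showed it well above background, with usable ratios from 6 or more arrays. The fit in limma 3.58.1 (R 4.3.3) had 1 coefficient per tissue and a dye term (residual df 5, prior df 4.86), with Benjamini-Hochberg adjustment and a threshold of 0.05. Levels are single channels after loess and Aquantile normalisation. Named genes were all 6 members, the called list genes furthest from 0 in each direction, AHA1, AHA2 and PP2C-D1, the 3 lowest and 3 highest called SAUR genes (the third highest in inflorescences, SAUR8, was negative at −0.21), the 5 nearest profiles and the neighbouring loci. The 1.5-fold test was added after seeing the data. Same-numbered arrays share a dye orientation, and within one orientation deviations correlated at −0.0025 and 0.0341, so numbers were not taken as pairs. The number of arrays limits the precision.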

Additional observations from a re-analysis of the deposited data

Results flagged for a closer look

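The effect of *paps1-1* differed between tissues for each of the 6 genes, by a test of the difference itself in limma. The seedling minus inflorescence difference in log2 ratio was −0.99 for SAUR19, −0.997 for SAUR20 and −0.857 for SAUR21. It was −1.12 for SAUR22, −1.04 for SAUR23 and −0.905 for SAUR24. No array stood apart from the other 3 of its tissue for any member by Dixon's criterion. The nearest to it was SAUR23 in inflorescences, with a gap of 0.775 of the range, under the 95% critical value.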

How the results depend on the processing

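Over all planned settings the 6 seedling ratios kept their call, between −1.48 and −1.03, as did the 6 differences between tissues, between −1.19 and −0.756. Against a 1.5-fold change 2 differences passed. The inflorescence count of 4 became 3 with normexp offset 0 and with the software log ratio, and 2 with no dye term. This count was 0 against a 1.5-fold change, and 1 to 5 when 1 inflorescence or seedling array was left out. Of its 114 single values 12 lost the call, 2 gained it and 0 reversed. The replicate block gave counts of 4, 6 and 6, changing none, while 3 calls of other named genes were lost (TRP1 and AT1G30260 in inflorescences, AHA2 in seedlings). With median centring, these list counts moved: PP2C genes higher in seedlings 1; H+-ATPases lower in inflorescences 0 and higher 1, and higher in seedlings 2; receptors and ARFs higher in seedlings 1; auxin synthesis higher in seedlings 2; PIF and BZR higher in seedlings 0; root markers higher in inflorescences 2 and in seedlings 5; photosynthesis lower in inflorescences 3; floral identity higher in inflorescences 2; other SAUR genes higher in seedlings 1. The PP2C median in inflorescences turned from 0.029 to −0.0705. Of 1401 values of other named genes, 67 lost a call, 5 gained one and 14 reversed, all in uncalled genes. AT5G17980 in inflorescences became −0.0378 (median centring) and −0.0373 to 0.0924 with 1 array left out. NCBP in inflorescences became −0.000641 (median centring), and NCBP in seedlings −0.0367 (median centring) and −0.0321 to 0.118 with 1 array left out. AHA1 in seedlings became 0.0557 and 0.0179 without replicates 2 and 3, and −0.17 without replicate 1. AT5G18040 in seedlings became −0.0267 (median centring), −0.12 (software log ratio), −0.0142 and −0.00734 (without replicates 3 and 4) and 0.0851 (without replicate 2). AT5G18090 in seedlings became 0.0668 (median centring), 0.163 (software log ratio), 0.0031 (without replicate 1) and −0.0359 (without replicate 2). The causes were not tested. All 24 levels moved by over 1 SD without normalisation between arrays. Signal over local background of 7.19 to 207 for the members leaves few limits from dim spots.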
